A study of Mus musculus with 4 samples.

Results

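Loci outside the reference annotation were described where they carried at least 500 expected (estimated) counts in at least 1 library of granulocyte-monocyte progenitors. These progenitors sit in the bone marrow and are the source of neutrophils and monocytes. Of 274 unannotated loci listed in any library, 40 met this level. The 58 loci numbered within 2 stretches, between Mad2l1 and Smyd1 and between Pacs2 and Zfp386, were left out of the 40 beforehand. None of them reached the level. They stayed among the 274 and, where they passed the filter on low values, among the loci tested. The loci were chosen by their highest expected count, so their abundance is a description and not a result. RNA from MST1-deficient mice was compared with RNA from wild-type mice, with 2 libraries in each group. Each library was made from poly(A)-selected RNA of sorted cells pooled from 10 mice, held in serum-containing medium without any drug. The labels give no allele, strain, age, sex or batch, and they do not say how MST1 was lost or whether pools of the same number were prepared together. MST1 was taken to be the Hippo pathway kinase encoded by Stk4 in the mouse.

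An unannotated locus is a place where reads assemble into a transcript that overlaps no gene of the annotation used. Long noncoding RNAs, transcribed pseudogenes, transcripts started in repeats and unrecorded genes are the usual classes of such transcripts. Poly(A) selection favours those with a tail. The class of each locus here is not given in the files, and no sequence or position comes with them.

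The implied totals of the libraries, to which FPKM (fragments per kilobase of transcript, scaled to library size) was scaled, were 6913714 and 8518546 for MST1-deficient replicates 1 and 2 and 7982152 and 7406822 for wild-type replicates 1 and 2. MST1-deficient replicate 1 stood apart, with 11.8% of its listed counts in unannotated loci, while the other 3 libraries had 15.7% to 18.5%. Fold changes are also given without it. Of 14 genes that mark granulocyte-monocyte progenitors, only Gfi1, Csf3r and Kit had unannotated transcripts in the files, summing to 78.2 and 98.2 FPKM in MST1-deficient and 85 and 60.1 FPKM in wild-type libraries. Mpo and Elane had none listed, and annotated transcripts were not analysed here. Only these 3 genes could therefore be set beside the cell label, and they cannot establish it. The summed unannotated transcripts of 4 listed erythroid markers of 7 had 14.4 and 4.6 FPKM in MST1-deficient and 23.3 and 28.5 FPKM in wild-type libraries. The 2 listed markers of 6 for eosinophils, basophils and mast cells, Ms4a2 and Gata2, summed to 85.1 and 93.5 FPKM against 111.6 and 128.8 FPKM. Marker sums of B cells, T and NK cells, megakaryocytes, macrophages and mature neutrophils overlapped between the groups. The part of these cells in the results was not tested.

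The 40 loci carried nearly all of the reads from unannotated loci. They held 94.6% and 95.9% of those counts in the MST1-deficient libraries and 94.4% and 95% in the wild-type ones. As a share of all listed unannotated transcripts, including those of annotated genes, they held 11.1% and 16.8% in the MST1-deficient and 14.8% and 17.6% in the wild-type libraries. On the FPKM scale 6 of the 10 most abundant unannotated transcripts, 15 of the top 20 and 36 of the top 100 came from these 40 loci, among 8219 transcripts ranked by their mean over the libraries. These ranks follow in part from the rule.

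**Figure D1:**
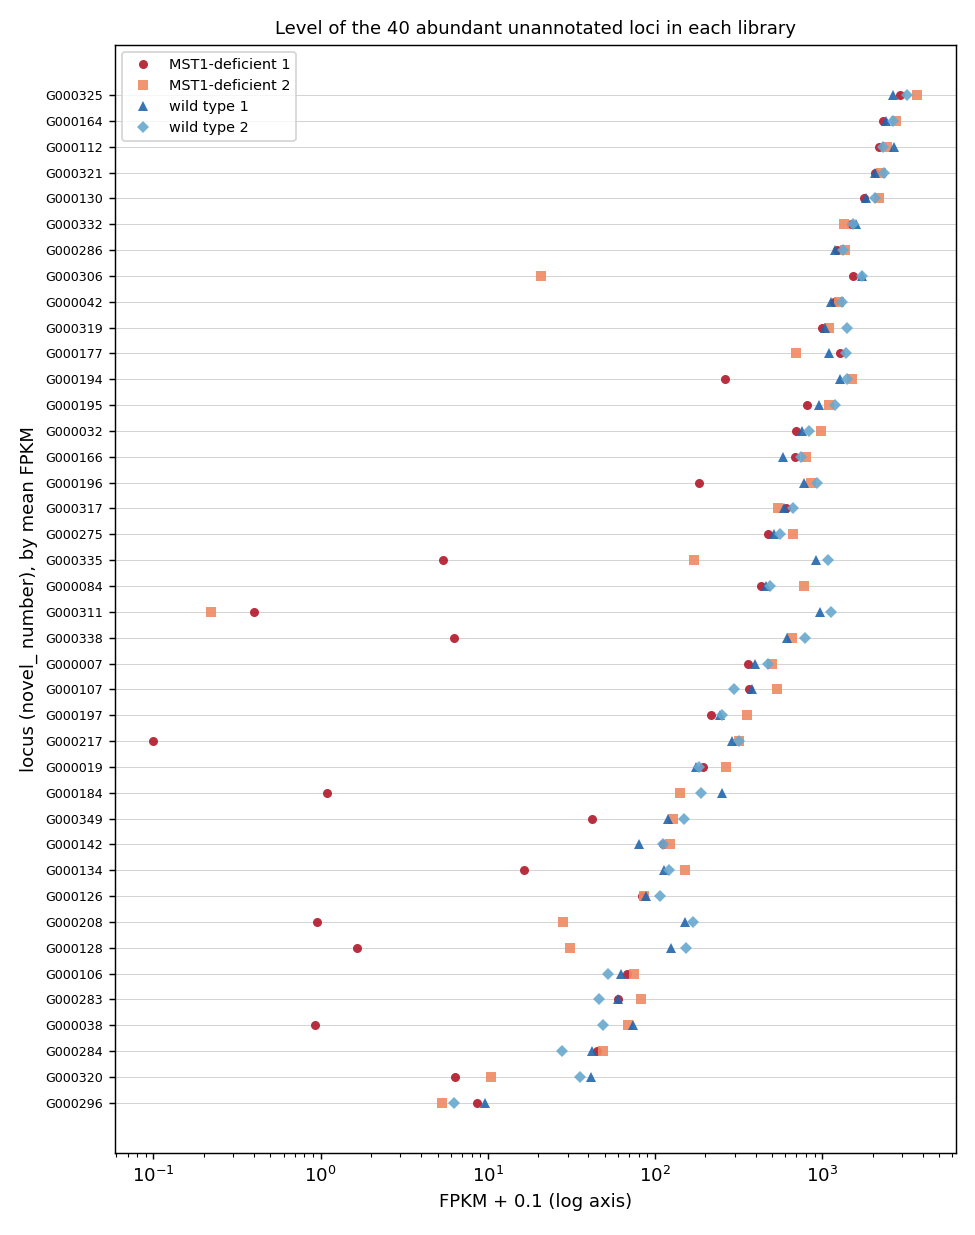
FPKM + 0.1 of each of the 40 loci (rows, ordered by mean FPKM) in the 4 libraries (points; log axis). In most rows the points of the 4 libraries lie together, and the separate points to the left are mainly those of MST1-deficient replicate 1, with novel_G000306 low in MST1-deficient replicate 2 and novel_G000311 low in both.

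Every one of the 40 loci had 1 listed transcript, with lengths between 409 and 10714 bases and a median of 858 bases. There were 24 loci under 1000 bases and 3 over 5000 bases. The 234 remaining unannotated loci, with the 58 of the left-out stretches among them, had a median length of 614 bases. Of these, 161 were under 1000 bases and 10 over 5000 bases. A long transcript reaches 500 counts at a lower FPKM, so length enters the rule. All 4 libraries listed 39 of the 40 loci, and 113 of the 234 others. The exception was novel_G000217, which was missing from MST1-deficient replicate 1. Counts were whole numbers (within 0.005) in every library at 6 loci and in no library at 29.

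**Figure D2:**
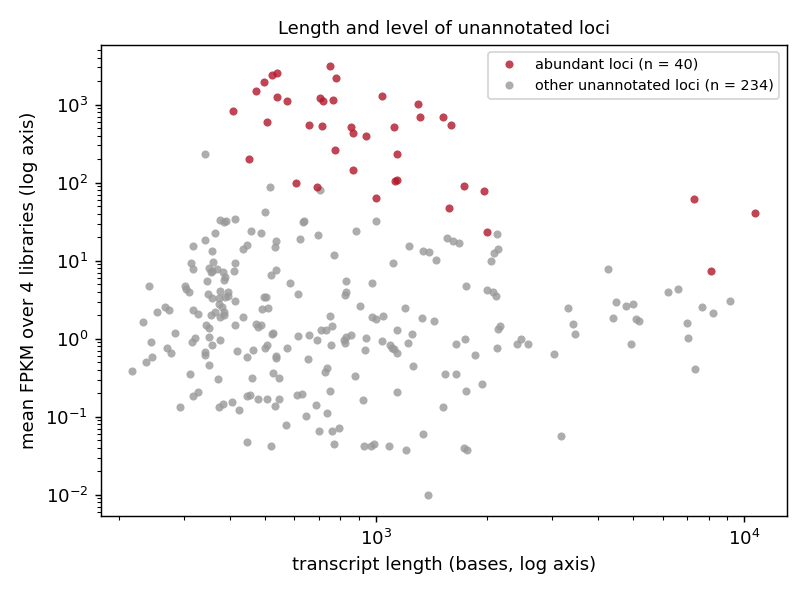
Transcript length in bases against mean FPKM over the 4 libraries (both log axes) for the 40 abundant loci and the 234 other unannotated loci. The abundant loci lie mostly between 409 and 1996 bases, and the 3 loci over 5000 bases sit at the lower end of their FPKM.

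The loci were spread over the genome. Transcript numbers followed the genome closely: 99.7% of consecutive annotated transcripts were on the same chromosome, and 99.5% of those pairs were in order of position. A locus could therefore be placed between the nearest numbered annotated genes on mm10, although its own coordinates are not in the files. The 40 loci fell on 18 chromosomes, with 5 each on chromosomes 5 and 9, 4 on chromosome 7 and 3 each on chromosomes 8 and X. The 1 other locus, novel_G000332, came after 2010315B03Rik at the end of chromosome 9 and before a gene on an unplaced sequence, so no chromosome was assigned. The gaps between the flanking genes ran from 9.28 to 8531 kb and held 2 to 198 GENCODE genes each. Their median was 2099 kb, with a gap shared by several loci counted once for each locus. Of the 39 placed loci, all had at least 1 GENCODE pseudogene in their gap, and 37 had at least 1 protein-coding gene. Gaps this wide hold many genes of either kind, and no locus could be assigned to any of them.

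Narrow gaps give the closest placement. The locus novel_G000197 (773 bases) lay between Abcf2 and Chpf2 on chromosome 5, in a gap of 9.28 kb (chromosome 5, 24577468 to 24586743, mm10) that held the processed pseudogene Gm10221 and the edge of Chpf2. It had 215.9 and 353 FPKM in the MST1-deficient and 243 and 249.8 FPKM in the wild-type libraries. The groups overlapped. On chromosome 11, novel_G000038 (1573 bases) lay between Dcxr, a carbonyl reductase gene, and Rfng, which modifies Notch receptors, in a gap of 53.5 kb with Cbr2, Hmga1b and the pseudogene Gm11771.

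Of the 10 loci with the highest mean FPKM, all but novel_G000306, described further on, had a highest library under 2 times the lowest. The highest was novel_G000325 (747 bases), between Pxylp1, a phosphatase gene, and Slc25a36, a mitochondrial carrier gene, on chromosome 9. It had 2906 and 3705 FPKM in the MST1-deficient libraries and 2667 and 3219 FPKM in the wild-type ones. The groups overlapped on this scale, and the smaller locus novel_G000326 (342 bases), in the same gap but under the level, had 186.2 and 196.8 FPKM against 268 and 275.4 FPKM. Of the second locus, novel_G000164 (538 bases), between the corepressor gene Tbl1xr1 and the cytokinesis gene Ect2 on chromosome 3, the libraries held 2314 and 2744 FPKM in MST1-deficient and 2408 and 2662 FPKM in wild-type cells. In FPKM, wild-type values lay between the MST1-deficient ones. On counts scaled by TMM factors both MST1-deficient libraries were higher, but not with the scaling from all unannotated transcripts.

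At the next loci, too, the highest library was under 2 times the lowest. In the gap between Nrip1, a nuclear receptor corepressor gene, and the mitochondrial ribosome gene Mrpl39 on chromosome 16, novel_G000112 (520 bases) had 2186 and 2449 FPKM in MST1-deficient and 2670.3 and 2316 FPKM in wild-type libraries. Between the adhesion gene Ncam1 and the cytokine gene Il18 on chromosome 9, novel_G000321 (778 bases) had 2060.4 and 2249 FPKM against 2077 and 2341 FPKM. The unannotated transcripts of both neighbours were low, with 0 and 0.09 FPKM against 0 and 0 for Ncam1 and 1.39 and 0.56 FPKM against 1.29 and 0.64 FPKM for Il18.

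The abundance of that locus thus had no counterpart in the unannotated transcripts of the genes numbered next to it. On chromosome 18, novel_G000130 (497 bases), between Arhgap12 and Mkx, had 1785 and 2189 FPKM in MST1-deficient and 1833 and 2059.8 FPKM in wild-type libraries. The locus without a chromosome, novel_G000332 (472 bases), had 1488 and 1344 FPKM against 1590.02 and 1531 FPKM. Both MST1-deficient libraries were lower in FPKM, while on counts scaled by TMM factors the groups overlapped. Further down, novel_G000286 (between Btbd10 and Sox6), novel_G000042 (between Smc6 and Nbas) and novel_G000319 (between Nfrkb and Kirrel3) had between 992.2 and 1406 FPKM in every library. Over all 40 loci, 25 had a highest FPKM under 2 times the lowest, with a median of 1.41 times and a range of 1.14 to 1.82 times. The ratio of group means (MST1-deficient over wild type) at these 25 ran from 0.856 to 1.36 with a median of 1.02, above 1 at 14 and below 1 at 11. MST1-deficient replicate 2 was the highest library at 16 of the 25 and MST1-deficient replicate 1 at 0.

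The steady loci lower down the range had the same kind of spread. Beside Zfp692 on chromosome 11, novel_G000032 (409 bases, the shortest) had 700.3 and 989.4 FPKM in MST1-deficient and 755.6 and 839 FPKM in wild-type libraries. The locus novel_G000166 (1517 bases), between Rab33b, a vesicle trafficking GTPase gene, and Supt20 on chromosome 3, had 686.2 and 804 FPKM against 582 and 747.5 FPKM. In both the groups overlapped in FPKM, although on counts scaled by TMM factors both MST1-deficient libraries were higher at novel_G000166. Between Dcun1d5 and Birc2, an inhibitor of apoptosis gene, on chromosome 9, novel_G000317 (505 bases) had 611 and 542 FPKM in MST1-deficient and 594 and 668 FPKM in wild-type libraries. Between Pvr and Zfp61 on chromosome 7, novel_G000275 (657 bases) had 476 and 668.7 FPKM against 517.9 and 562 FPKM. These too overlapped. The locus novel_G000084 (712 bases), between Ice1 and the potassium-chloride transporter gene Slc12a7 on chromosome 13, was highest in MST1-deficient replicate 2, with 432 and 772.9 FPKM in MST1-deficient and 458.7 and 487.6 FPKM in wild-type libraries. Between Agpat3 and Ilvbl on chromosome 10, novel_G000019 (452 bases) had 193 and 264 FPKM against 176.9 and 182 FPKM, without overlap in FPKM. At novel_G000142 (1128 bases), between Pip5k1b and Dock8 on chromosome 19, the groups overlapped in FPKM. It had 111 and 123 FPKM in MST1-deficient and 80.2 and 112 FPKM in wild-type libraries. On counts scaled by TMM factors both novel_G000019 and novel_G000142 were without overlap. With the scaling from all unannotated transcripts neither was. On chromosome 17, novel_G000126 (1733 bases), between Birc6 and Vit, had 82.9 and 85.5 FPKM against 88 and 107 FPKM. Both MST1-deficient libraries were slightly lower in FPKM alone. On counts scaled by TMM factors or from all unannotated transcripts the groups overlapped.

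The other 15 loci differed by 2 times or more between libraries, and in most of them MST1-deficient replicate 1 was the low library. Below 10% of the highest library's count were 9 loci in MST1-deficient replicate 1, 2 in MST1-deficient replicate 2 and 0 in either wild-type library. In any library there were 10 loci (25%), against 7.16% of 475 unannotated transcripts of annotated genes at the same level. By library, the shares of those transcripts below 10% were 2.74% and 2.32% in MST1-deficient replicates 1 and 2 and 2.95% and 3.16% in wild-type replicates 1 and 2. Among the 40 loci they were 22.5% and 5% in MST1-deficient replicates 1 and 2. The difference between these shares was not tested.

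**Figure D3:**
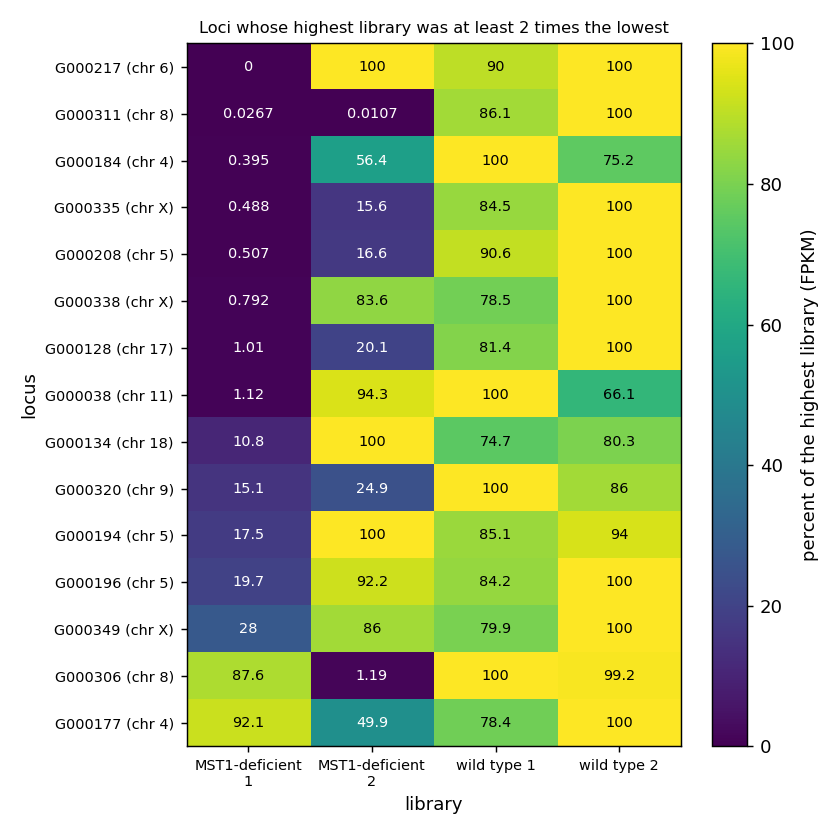
FPKM of each library as a percent of the highest library (colour and number) for the 15 loci whose highest library was at least 2 times the lowest, with columns for the 4 libraries. The dark cells lie in the column of MST1-deficient replicate 1, apart from novel_G000306, novel_G000177 and the cells of novel_G000311, novel_G000335, novel_G000208, novel_G000128 and novel_G000320 in MST1-deficient replicate 2.

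At 5 of these loci MST1-deficient replicate 1 was below 10% of the highest count and MST1-deficient replicate 2 stood at 56.4% or more of the highest FPKM. The locus novel_G000217 (1136 bases), between the nuclear pore gene Nup205 and Trim24 on chromosome 6, had 0 and 2746 expected counts in the MST1-deficient libraries and 2287 and 2367 in the wild-type ones. It was missing from 1 library while the other 3 lay close together. On the X chromosome, novel_G000338 (853 bases), between Enox2 and Fam122b, had 6.21 and 655.7 FPKM against 616 and 784 FPKM. The value in MST1-deficient replicate 2 lay between the wild-type values. In the gap by Dcxr and Rfng, novel_G000038 had 0.82 and 69.3 FPKM in MST1-deficient and 73.5 and 48.6 FPKM in wild-type libraries. The groups overlapped here too. Between Taf4b, a subunit gene of a general transcription factor, and the trafficking gene Trappc8 on chromosome 18, novel_G000134 (604 bases) had 16.3 and 151 FPKM in MST1-deficient and 112.8 and 121.3 FPKM in wild-type libraries. For novel_G000184 (865 bases), between Tmem268 and the corepressor gene Tle1 on chromosome 4, the values were 0.99 and 141.2 FPKM in MST1-deficient and 250.6 and 188.6 FPKM in wild-type libraries. Both MST1-deficient libraries were lower there, but far apart from each other.

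The opposite case was novel_G000306 (538 bases), between Phkb, a phosphorylase kinase subunit gene, and Cnep1r1 on chromosome 8. It had 1524 and 20.6 FPKM in the MST1-deficient libraries and 1741 and 1727 FPKM in the wild-type ones. MST1-deficient replicate 2 alone was far below the rest. A milder case was novel_G000177 (718 bases), between Asph and Ndufaf6 on chromosome 4, with 1286 and 697 FPKM in MST1-deficient and 1095 and 1396 FPKM in wild-type libraries. Of the unannotated transcripts beside novel_G000306, those of Phkb had 4.02 and 10.1 FPKM against 9.89 and 8.13 FPKM, so they were not lower in MST1-deficient replicate 2. Those of Cnep1r1 had 0.15 and 0.21 FPKM against 0.54 and 0.29 FPKM. They were lower in both MST1-deficient libraries, at no more than 12.2 expected counts in any library.

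At another 3 loci both MST1-deficient libraries were lower, replicate 1 by far the most. The X-linked locus novel_G000335 (1595 bases), between the deubiquitinase gene Usp9x and Nyx, had 5.32 and 170.4 FPKM in the MST1-deficient libraries and 921 and 1090.3 FPKM in the wild-type ones. On chromosome 17, novel_G000128 (1967 bases) had 1.54 and 30.7 FPKM against 124 and 152.4 FPKM. Likewise novel_G000208 (691 bases), between Septin11 and the deadenylase gene Cnot6l on chromosome 5, had 0.85 and 27.9 FPKM against 151.9 and 167.6 FPKM. At these 3 loci the wild-type libraries lay close together, and MST1-deficient replicate 2 was at 15.6% to 20.1% of the highest library. A smaller contrast with less spread was seen at novel_G000320 (1996 bases), next to novel_G000319 in the gap by Nfrkb, a chromatin remodelling subunit gene, on chromosome 9. It had 8.29 ± 2.88 FPKM in MST1-deficient and 38.6 ± 4.12 FPKM in wild-type cells (SD, n = 2 each), and its neighbour novel_G000319 had 1044 ± 72.7 FPKM and 1220 ± 262.7 FPKM (SD, n = 2 each).

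Only novel_G000311 (1118 bases), between Cnot1 and Cmtm3 on chromosome 8, was near 0 in both MST1-deficient libraries. Cnot1 encodes the scaffold of a complex that shortens poly(A) tails, and Cmtm3 a membrane protein. The gap between them, 8531 kb, was the widest of all, so neither need be close to the locus. The locus had 2 and 1.02 expected counts in MST1-deficient cells, against 7579 and 8197 in wild-type cells. Its level in wild type was 1047 ± 110.4 FPKM (SD, n = 2). Another unannotated locus in the same gap, novel_G000310 (1678 bases), had 18.1 and 15 FPKM in MST1-deficient and 15.4 and 19.9 FPKM in wild-type libraries and did not share the pattern. The unannotated transcripts of Cnot1 summed to 29.3 and 20.3 FPKM against 24.7 and 26.3 FPKM. Those of Cmtm3 had 3.68 and 2.74 FPKM in MST1-deficient and 13.7 and 11.3 FPKM in wild-type libraries, so they were lower in both MST1-deficient libraries as well.

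**Figure D4:**
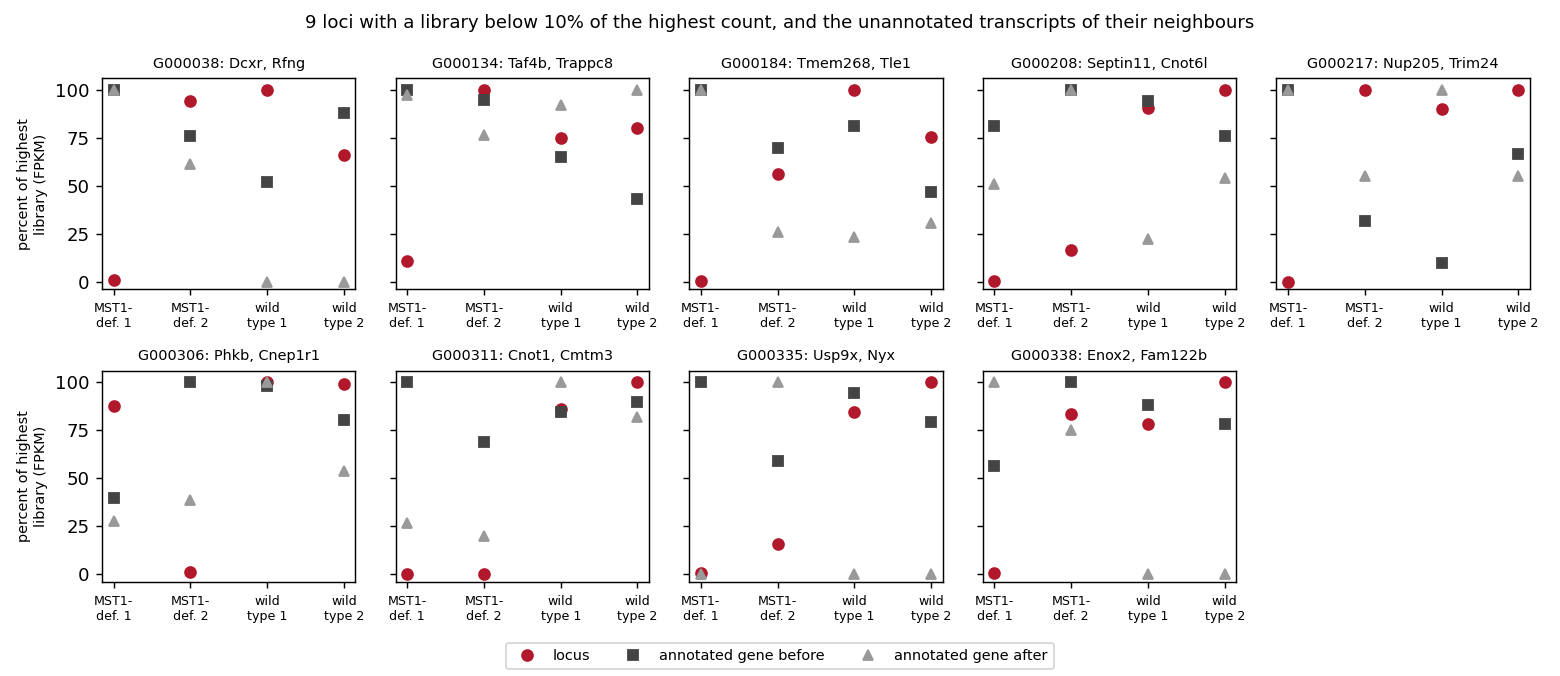
FPKM as a percent of the highest library, in each of the 4 libraries, for 9 of the 10 loci with a library below 10% of the highest count (circles) and for the summed unannotated transcripts of the annotated gene numbered before (squares) and after (triangles) each. Of 20 neighbour values in the low library, 1 is below 10%, and a neighbour need not lie close to the locus.

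For 9 of the 10 loci with a library below 10%, the neighbours' unannotated transcripts were read in the same library. Of 20 neighbour values, 1 was below 10% of that gene's highest library. This was Nyx beside novel_G000335, a gene of the retina with 0 and 2.83 counts in MST1-deficient and 0 in both wild-type libraries, too few to compare. Many neighbours had only a few FPKM, so their own percentages carry a wide counting error. The gaps around these 9 loci ran from 53.5 to 8531 kb, so a neighbour by number need not be an adjacent gene. The unannotated transcripts of Usp9x, on the other side, had 11.7 and 6.91 FPKM against 11.1 and 9.28 FPKM. In the reverse situation, Klhl12 had no unannotated reads in MST1-deficient libraries and 7.7 and 8.66 FPKM in wild type, while novel_G000007 beside it on chromosome 1 had 357.8 and 503.6 FPKM against 395 and 475 FPKM.

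Loci that shared a gap did not always share a pattern. On chromosome 5, 3 consecutive loci lay between Gtpbp10, a mitochondrial GTPase gene, and Sri, a calcium-binding protein gene. The first, novel_G000194 (573 bases), had 261.8 and 1499.9 FPKM in MST1-deficient and 1276 and 1410.4 FPKM in wild-type libraries. The third, novel_G000196 (1315 bases), had 182.7 and 854.6 FPKM against 779.8 and 926 FPKM. The one between them, novel_G000195 (1299 bases), had 809.8 and 1097 FPKM against 954 and 1187 FPKM. The outer loci were thus low in MST1-deficient replicate 1 and the middle one was much less so. Of the summed FPKM of the 3 loci, the middle locus made up 64.6% in MST1-deficient replicate 1, 31.8% in MST1-deficient replicate 2 and 31.7% and 33.7% in the wild-type libraries.

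Pairs near genes of the myeloid lineage and of the interferon response had nearly constant shares in the 4 libraries. The pair novel_G000106 (997 bases) and novel_G000107 (940 bases) lay between Ly6c1 and Ly6g on chromosome 15, genes of surface proteins used to mark monocytes and neutrophils in the mouse. The locus novel_G000107 had 366.6 and 533.6 FPKM in MST1-deficient and 381 and 297.7 FPKM in wild-type libraries. Its partner novel_G000106 had 67.6 and 74.6 FPKM against 62.3 and 52.1 FPKM, and made up 15.6% and 12.3% of the pair in MST1-deficient and 14.1% and 14.9% in wild-type libraries. GENCODE places Ly6c2 and I830127L07Rik in the same gap. Such relatives in a gene cluster are alike in sequence, so the split of reads among them is uncertain.

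The longest 2 loci, novel_G000284 (10714 bases) and novel_G000283 (7306 bases), lay between Gvin1, a very large interferon-induced GTPase gene, and Gm1966 on chromosome 7. The longer made up 43% and 37.4% of the pair in MST1-deficient and 40.8% and 37.5% in wild-type libraries. It had 45.1 and 48.9 FPKM in MST1-deficient and 41.6 and 27.7 FPKM in wild-type libraries. For novel_G000283 the values were 59.8 and 81.9 FPKM against 60.3 and 46.1 FPKM. At all 4 loci of these pairs MST1-deficient replicate 2 was the highest and wild-type replicate 2 the lowest library. The groups overlapped in FPKM at novel_G000107 and novel_G000283. The Gvin genes form a family of similar copies, among which reads can be hard to split. Counts were whole numbers in all 4 libraries at novel_G000283 and in no library at novel_G000284. Fractional counts were thus seen at the longer locus alone.

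Of the 3 loci on the X chromosome, all were lowest in MST1-deficient replicate 1. Beside novel_G000335 and novel_G000338 this was novel_G000349 (1142 bases), between Alg13 and Tmem29, with 41.8 and 128 FPKM in MST1-deficient and 119 and 148.9 FPKM in wild-type libraries. The 204 unannotated transcripts of annotated X-linked genes summed to 726 and 640.2 FPKM in MST1-deficient and 658 and 582 FPKM in wild-type libraries, so they were highest in that library. The 4 listed transcripts of the Y chromosome summed to 23.4 and 14.8 FPKM against 3.6 and 0 FPKM. The labels do not give the sex, and the part of sex in these values was not tested.

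The groups were compared with edgeR (quasi-likelihood F-test, Benjamini-Hochberg adjustment) over the 185 unannotated loci with at least 1 FPKM in at least 2 libraries. All 40 loci passed this filter. The 185 also hold the loci of the 2 left-out stretches that passed it. The adjusted p was under 0.05 for 1 of them, novel_G000311, and for 1 of the 185 in all (0.541%). An unadjusted p under 0.05 was found for 2 of the 40 and for 24 of the 185 (13%). In MST1-deficient cells novel_G000311 was lower by 12.06 on the log2 scale, with an SE of 0.61 and an adjusted p of 0.00588 (edgeR). Each edgeR SE given here is the size of the log2 fold change over the square root of the F statistic. It was not estimated directly and can be too small, since DESeq2 gave an SE of 1.02 for this locus. Summed over each group, the counts were 3 for MST1-deficient cells against 15776 for wild type. The ratio of wild type over MST1-deficient was 4719-fold after scaling, and its 95% Clopper-Pearson bounds, which reflect counting only, were 1615 and 22886. In bulk RNA, fewer cells of a type and less RNA per cell cannot be told apart. The call was lost without wild-type replicate 1 (adjusted p 0.117) or wild-type replicate 2 (0.12), in the edgeR fit over all unannotated transcripts (0.0695) and with the replicate number as a block (0.137).

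**Figure D5:**
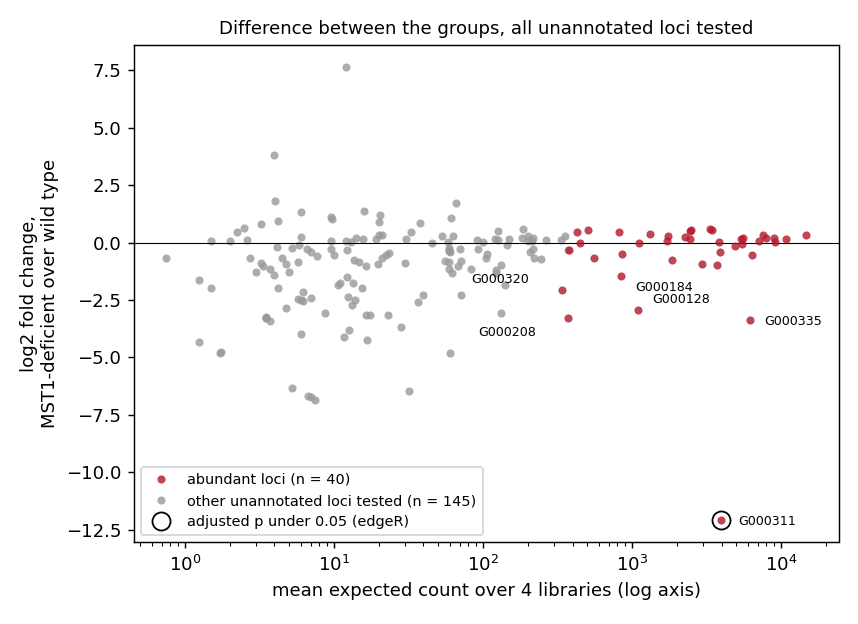
Log2 fold change (MST1-deficient over wild type, edgeR) against the mean expected count over the 4 libraries (log axis) for the 185 loci tested, with the 40 abundant loci in red. The circled locus, novel_G000311 at -12.06, is the only one past the threshold, and the other abundant loci lie between -3.36 and 0.58.

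For the other loci the lowest adjusted p was 0.286, at novel_G000320 (edgeR log2 fold change -2.07, SE 0.46). The 3 loci that were low in both MST1-deficient libraries, but unequally so, had wide errors: novel_G000335 had a log2 fold change of -3.36 (SE 1.61), novel_G000208 of -3.30 (SE 1.59) and novel_G000128 of -2.945 (SE 1.43), with adjusted p of 0.414 each (edgeR). At novel_G000184 it was -1.48 with an SE of 1.93 (edgeR adjusted p 0.836). Leaving out 1 MST1-deficient library moved these values. Without MST1-deficient replicate 1 the log2 fold change was -12.78 at novel_G000311, -2.41 at novel_G000335 and -2.02 at novel_G000128, with edgeR adjusted p of 0.000372, 0.00317 and 0.03. In the same fit it was -2.35 at novel_G000208, -1.77 at novel_G000320 and -0.49 at novel_G000184, with edgeR adjusted p of 0.053, 0.153 and 0.393. Without MST1-deficient replicate 2 it was -11.53 at novel_G000311, -7.36 at novel_G000335, -6.32 at novel_G000128, -7.43 at novel_G000208, -2.45 at novel_G000320 and -7.58 at novel_G000184, and the edgeR adjusted p was under 0.05 at each. By the number of loci, 4 of the 40 were past the threshold without MST1-deficient replicate 1, among 4 in all (edgeR), the fourth being novel_G000306. Without MST1-deficient replicate 2 there were 13 of the 40, among 17 in all. Without either wild-type library there were 0 of the 40 and 0 in all (edgeR). An unadjusted p under 0.05 was then found for 2 of the 40 in each fit, among 7 in all when wild-type replicate 1 was left out and 5 when it was wild-type replicate 2. In these fits 1 group had a single library, which was assumed to vary like the libraries of the other group.

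No locus among the 40 was called higher. Both MST1-deficient libraries lay below both wild-type ones at 6 of the 40 on counts scaled by TMM factors, against 35.1% of all 185 loci. They lay above at 14, against 13.5% of all loci. The second count depended on the scaling, in alternatives added after seeing the data. It was 2 (all loci, 5.41%) when the scaling came from all unannotated transcripts, and 3 (4.86%) on FPKM, while the count below was 7 (39.5%) and 9 (42.2%). The median log2 fold change was 0.05 over the 40 loci and -0.43 over the 185. With the scaling from all transcripts these medians were -0.07 and -0.52, and with RLE size factors 0.27 and -0.19, so no direction was assigned to the steady loci. All shares and medians over the 185 include loci of the 2 left-out stretches, and they were not computed without those loci.

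The level of 500 counts cut through a continuous range. Just inside it were novel_G000106, with a highest count of 553 (MST1-deficient replicate 2), and novel_G000296 (8117 bases, between 2610005L07Rik and Polb on chromosome 8), with 602 (wild-type replicate 1). Just outside were novel_G000092 (between Pxk and 3830406C13Rik on chromosome 14), with 454.7, and novel_G000326, with 435.6. By FPKM, novel_G000296 was the lowest of the 40, with 8.5 and 5.19 FPKM in MST1-deficient and 9.46 and 6.18 FPKM in wild-type libraries. At 25 of the 40 loci every library reached 500 counts. There were 3 that reached it in MST1-deficient libraries alone and 5 in wild-type libraries alone. The 5 were novel_G000128, novel_G000208, novel_G000296, novel_G000311 and novel_G000320.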

How the data were processed

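Poly(A)-selected RNA from pooled cells was sequenced, and the authors deposited expected counts and FPKM estimated per unannotated transcript and locus, per the file headers. The submitters' processing notes name mm10 as the build. The aligner, assembler, estimator and annotation are not given in the sources used here. Only values above 0 are listed, so a missing locus was set to 0. FPKM followed from the count, an implied library total and the length shortened by 126 to 139 bases, which raises FPKM most at short loci. Library totals are given with the results, and the interval covers counting error alone, since the labels describe no molecular identifiers to tell PCR copies apart.

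Neighbours were the annotated genes with the nearest transcript numbers, placed with RefSeq GRCm38.p6; GENCODE M21 genes were counted between them. The neighbours of novel_G000128 are not reported here. Expected counts were rounded and tested with edgeR 4.0.16 under R 4.3.3 (TMM, threshold 0.05). Other fits used DESeq2 1.42.0, limma 3.58.1 on log2(FPKM + 0.5) or log2(FPKM + 0.1), other size factors, no filter, a block for replicate number, and fits without 1 library. P-values measure the spread between 2 pools per group, and exact permutation of 2 against 2 cannot go below 0.33.

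The loci, marker lists and comparisons were chosen with earlier results of these data known. Named were loci past the threshold, without overlap and with a log2 change of at least 1, in the top 10 by FPKM, with a library below 10% of the highest, or next to the level. The remaining abundant loci, novel_G000310 and the neighbours' values were picked after the values were seen.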

Additional observations from a re-analysis of the deposited data

How the results depend on the processing

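The log2 fold changes of the 6 loci given one kept their sign in every alternative run. Over all 185 loci the number past the threshold was 1 with edgeR, also with RLE factors, with factors of the transcript table and without a filter (274 loci), and 4 with DESeq2, 4 with limma on log2(FPKM + 0.5) and 8 on log2(FPKM + 0.1). In each of these novel_G000311 was the 1 abundant locus called. In the edgeR fit over all unannotated transcripts the count was 0 for all loci and for the abundant ones, with 21 and 2 at an unadjusted p under 0.05. With the replicate number as a block it was 0 for both (edgeR; 14 and 2 unadjusted), and novel_G000311 had a log2 fold change of -12.10 and an adjusted p of 0.137. The numbers are not known to pair the pools: the correlation of same-numbered deviations over 185 loci was 0.12, from 2 pairs. Leaving out 1 library gave 0 to 17 loci in all and 0 to 13 abundant ones (edgeR), with 5 to 46 and 2 to 21 unadjusted. The cause of these changes was not tested. With 20% in place of 10% of the highest library, 12 loci were low in MST1-deficient replicate 1 in place of 9. In MST1-deficient replicate 2 there were 4 in place of 2, and in each wild-type library still 0. Requiring 500 counts in all 4 libraries left 25 loci.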
